A study of Mus musculus with 2 samples.

Results

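Haem and iron handling was described through 7 genes: Hmox1, Blvrb, Fth1, Ftl1, Slc40a1, Slc11a1 and Tfrc. They were chosen by name, as genes of haem breakdown, iron storage, iron export and iron uptake, out of 32285 genes measured in single cells from the lamina propria of the mouse colon, which lies beneath the gut epithelium. All 7 had UMIs (molecular barcodes that count each captured RNA once) in both libraries. The labels call the cells CD11b+, after a surface protein of myeloid cells that the gene Itgam encodes. The study behind the series compared mice lacking Runx3 through Lyz2-Cre (RUNX3 fl/fl-Lyz2-Cre) with RUNX3 fl/fl littermates, so floxed Runx3 alleles are common to both groups, and the Lyz2 promoter drives Cre in myeloid cells. The study states that the mice were male and 8 weeks old. It gives the cells as pooled from 6 mice, without saying whether that number holds for each library.

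There were 2 libraries, titled Runx3_fl and Runx3, and each was the only one of its kind. The titles do not say which mice carried Cre. No genotype was therefore given to either library, and both go by title. With 1 library on each side, a difference between the libraries and a difference between the mice cannot be told apart. No test was run, and every interval given is a 95% interval for counting error only.

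Macrophages that take up dying red cells split haem with haem oxygenase 1 (Hmox1), which frees iron and carbon monoxide and leaves biliverdin. Biliverdin reductase B (Blvrb) reduces flavins and some forms of biliverdin. Ferritin made of heavy (Fth1) and light (Ftl1) chains stores the iron, and ferroportin (Slc40a1) exports it. NRAMP1 (Slc11a1) moves metal ions out of the phagosome, and the transferrin receptor (Tfrc) brings transferrin iron in. Much of the control lies in the RNA: iron regulatory proteins bind a stem and loop, the iron responsive element, when iron is scarce, which holds back translation where the element lies before the coding sequence and protects the transcript where it lies after it.

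These elements are shown because they divide the genes by the way iron acts on their transcripts. Protein-coding transcripts of the GENCODE M21 annotation (GRCm38, the build that the submitters name as mm10) were searched over their whole length, coding sequence included. The pattern was a bulged C, 5 bases, the loop CAGTGN with its last base not G, and 5 bases pairing with the first 5. G-T pairs also counted. Only the transcript strand was searched. The search found 7 elements in 4 of the 7 genes, all in untranslated regions. Of 21877 protein-coding genes, 1.01% had at least 1 anywhere in a transcript. Each 30-base window is read 5′ to 3′ on the gene's strand, with the loop in capitals. A match of letters is not a measurement of binding.
Slc40a1, 5′ UTR, chr1:45925465-45925494, minus strand: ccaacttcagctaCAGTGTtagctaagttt
Fth1, 5′ UTR, chr19:9982731-9982760, plus strand: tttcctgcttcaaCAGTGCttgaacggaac
Ftl1, 5′ UTR, chr7:45459779-45459808, minus strand: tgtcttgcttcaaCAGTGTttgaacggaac
Tfrc, 3′ UTR, chr16:32631218-32631247, plus strand: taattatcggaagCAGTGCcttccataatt
Tfrc, 3′ UTR, chr16:32631597-32631626, plus strand: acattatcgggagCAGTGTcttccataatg
Tfrc, 3′ UTR, chr16:32631662-32631691, plus strand: tctatatcggagaCAGTGAtctccatatgt
Tfrc, 3′ UTR, chr16:32631709-32631738, plus strand: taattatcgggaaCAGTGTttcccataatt
The windows of Fth1 and Ftl1 were the same at 27 of 30 bases. The 3 genes with an element in the 5′ UTR encode storage and export proteins, and the gene with elements in the 3′ UTR encodes the uptake receptor. The letters searched for were not found in Hmox1 (8:75093621-75100589, plus strand), Blvrb (7:27447978-27466144, plus strand) or Slc11a1 (1:74375195-74386062, plus strand).

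The libraries differed in ways that touch every value below. After the filter on cells, 200 to 6000 genes and at most 15% mitochondrial UMIs, the library labelled Runx3_fl held 11885 of 12968 cells with a median of 9573 UMIs, and the library labelled Runx3 held 8167 of 8953 with a median of 5731. Xist, which female cells transcribe from the inactive X chromosome, stood at 212 CPM, its UMIs scaled to 1000000 of all UMIs, in the first and at 0.183 in the second, although the mice are stated to be male. Runx3 itself was at 313 and 195 CPM over all cells, and in macrophage-gated cells at 154 and 241. The libraries shared 37 cell barcodes.

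Cells were gated by marker genes with at least 2 UMIs each: Csf1r and C1qa for macrophages, Ly6c2 for monocytes, Csf3r for neutrophils, Flt3 for classical dendritic cells (cDC), Ncr1 for NK cells, Cd3e for T cells and Cd79a for B cells. Of the library labelled Runx3_fl 6835 cells, and of the other 5181, fell in 1 of 7 gates, from 305 and 290 in the macrophage gate to 2668 and 273 in the T gate. The smallest group was the 62 NK-gated cells of the library labelled Runx3. Every gate carried all the marker genes of its own panel at 10 CPM or more in both libraries, but also RNA of other classes. In the T gate 8 monocyte genes summed to 1699 and 1794 CPM, beside 7 T cell genes at 2866 and 1795. In cDC the monocyte genes summed to 1492 and 3170.3 CPM. Macrophage genes, 10 in all, summed to 74.2 and 454 CPM in the T gate, 112 and 353 in cDC and 37.3 and 207 in NK cells. The B gate was led by plasma cell RNA, with 5 plasma genes summing to 52477 and 49196 CPM and 7 B cell genes to 2445 and 7595. The 8 monocyte genes summed to 4729 and 7083 CPM in the neutrophil gate and to 3459 and 4154 in the macrophage gate. Csf1r was at 224 and 266 CPM in the neutrophil gate, beside 157 and 218 in the monocyte gate. In the macrophage gate the 10 macrophage genes summed to 4381 and 8954 CPM and 9 cDC genes to 5279 and 4771, with 3 of the 9 at 10 CPM or more. In the monocyte gate the monocyte genes summed to 4298 and 5884 CPM, beside plasma genes at 4236 and 5062 and 8 neutrophil genes at 361 and 5846. Cells with no Csf1r UMI made up 47.5% and 52.6% of the monocyte gate. The part of this other RNA in the differences below was not tested. Itgam was low in T-gated cells, at 44.3 and 31.5 CPM, against 142 and 221 in macrophage-gated cells.

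**Figure D1:**
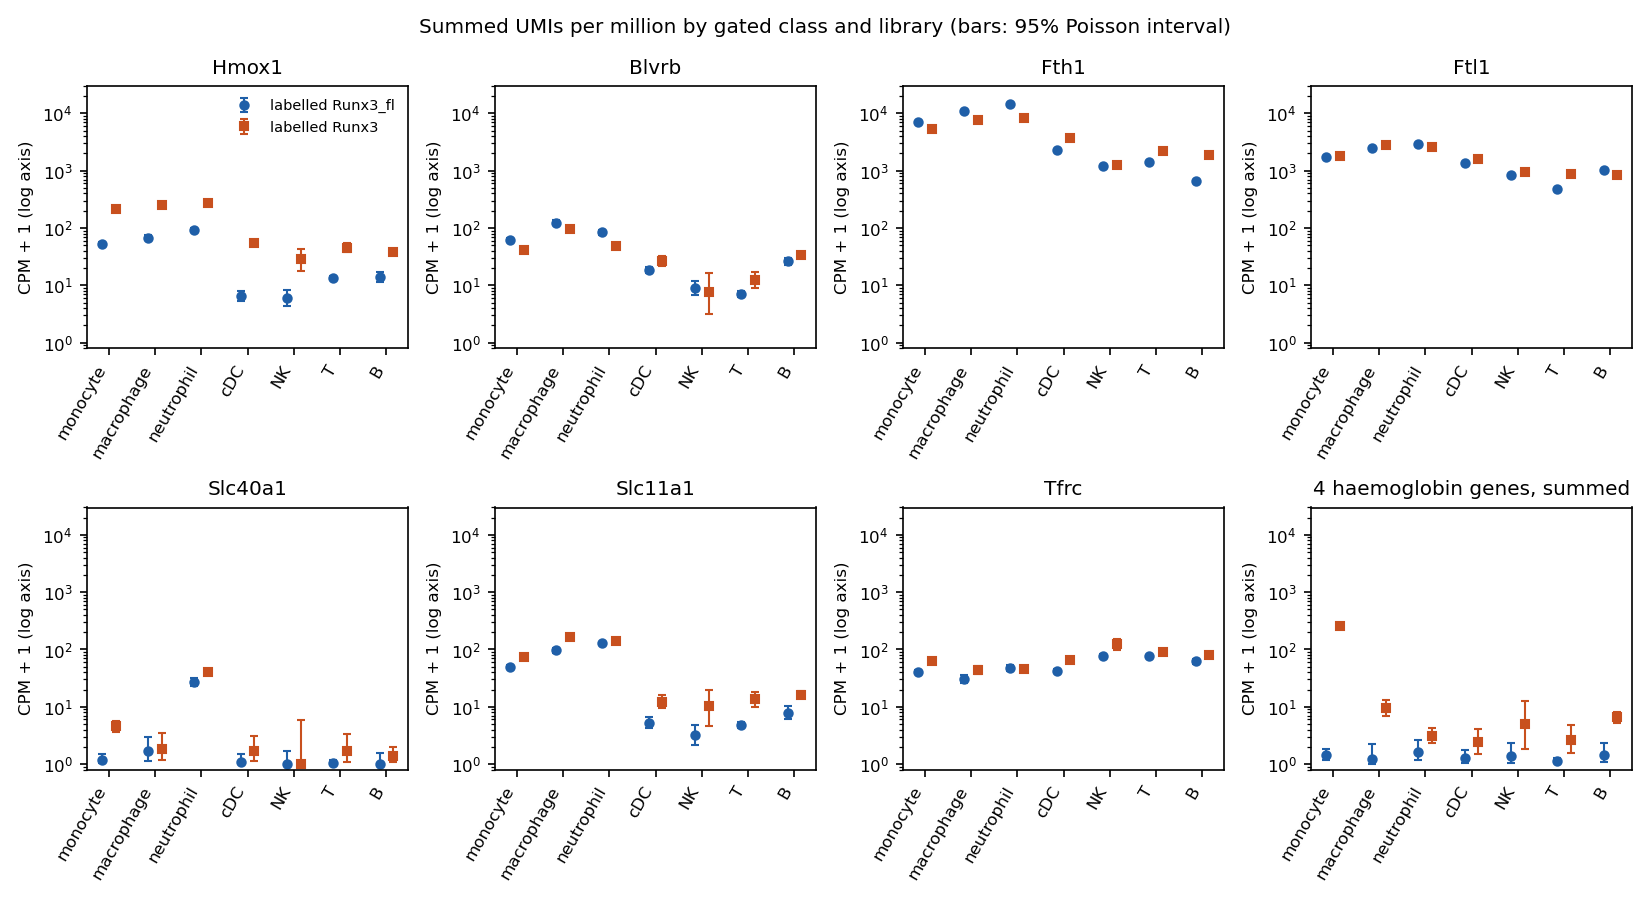
Level of each gene, and of 4 haemoglobin genes summed, in 7 gated classes (x axis) and 2 libraries (blue circles, labelled Runx3_fl; orange squares, labelled Runx3), as CPM + 1 on a log axis with 95% Poisson intervals. Hmox1 lay higher in the library labelled Runx3 in every class, from 251 against 67.1 CPM in macrophages to 53.5 against 5.53 in cDC, while Slc40a1 was near 0 outside the neutrophil gate.

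Hmox1 was the gene that differed most steadily between the libraries. In macrophage-gated cells the library labelled Runx3_fl had 67.1 CPM of it (95% Poisson interval 59.7 to 75.2). The library labelled Runx3 had 251 CPM (235 to 268), which was 3.70-fold higher after 1 CPM was added to each. In monocyte-gated cells the levels were 51.9 and 212 CPM, and in neutrophil-gated cells 89.9 and 269 CPM. The intervals of the libraries did not overlap in any of these 3 gates. Within the library labelled Runx3 those of the neutrophil and macrophage gates overlapped each other. In the neutrophil-gated cells of that library with at least 10 S100a8 UMIs, described below, Hmox1 was lower, at 183 CPM (169 to 198).

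The gates where Hmox1 was low differed in the same direction. It was at 5.53 and 53.5 CPM in cDC, at 12.5 and 44.5 in T cells and at 12.9 and 36.5 in B cells. NK cells held 28 and 21 UMIs, 5.07 and 27.7 CPM, too few for the comparison, which asked for 50 UMIs over both libraries. In the library labelled Runx3 the order was cDC, T, B and NK cells, where each class overlapped the next in its interval, while cDC (46.8 to 61.0) lay above B cells (32.9 to 40.4) and NK cells (17.1 to 42.3). Droplets also take up free RNA from broken cells, which gives all cell types a like low level. S100a8, a neutrophil gene, was at 2.17, 7.08, 1.76 and 2.19 CPM in NK, T, B and cDC cells of the library labelled Runx3_fl and at 92.2, 85.9, 99.0 and 129 in the other, and the part of free RNA in the Hmox1 levels of these gates was not tested.

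Counted as cells with a Hmox1 UMI after each cell was thinned to 2000 UMIs, the shares in the macrophage gate were 12.8% (exact interval 9.25 to 17.1) and 33.7% (28.2 to 39.5). Without thinning they were 46.6% and 65.9%, at median depths of 14187 and 10732 UMIs. T cells gave thinned shares of 2.10% and 4.78%, and unthinned shares of 14.5% and 18.7%, at median depths of 13938 and 9213 UMIs, and the macrophage shares lay above these in both libraries. The thinned shares in neutrophil-gated cells were 11.3% and 29.9%, and in monocyte-gated cells 8.46% and 25.6%.

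Blvrb had its highest level in macrophages in both libraries, at 123 and 95.0 CPM, and there it differed by 1.29-fold, lower in the library labelled Runx3. In neutrophil-gated cells it was at 82.8 and 46.9 CPM and in monocyte-gated cells at 61.2 and 39.5. The direction was the reverse of that of Hmox1 in these 3 gates. In cDC it was at 17.5 and 25.5 CPM, in B cells at 25.0 and 32.6, in T cells at 6.05 and 11.6, and in NK cells at 7.97 and 6.58. The neutrophil difference was the one that moved most with the gate: on the log2 scale it was -0.81, and it was -0.006 when 2 further neutrophil markers were required.

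Fth1, whose chain oxidises iron for storage, is on chromosome 19 (9980598 to 9985098, plus strand) and was at its highest in the neutrophil gate, at 14757 and 8352 CPM. Macrophages followed at 10997 and 7766 CPM and monocytes at 7052 and 5274. All 3 of these gates were lower in the library labelled Runx3, by 1.77-, 1.42- and 1.34-fold. Outside them the order of the libraries turned: Fth1 was at 2305 and 3759.6 CPM in cDC, at 1426 and 2211 in T cells and at 670.1 and 1903 in B cells. NK cells differed by less than their intervals, at 1221 and 1272 CPM. The B cell difference, 2.84-fold, stood beside the mixed make-up of that gate, and with each cell given the same weight it was 0.93 on the log2 scale in place of 1.50.

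Ftl1, the light chain, lies on chromosome 7 (45457944 to 45459884, minus strand), where the genes Gm22133 on the same strand and Gm10252 on the other overlap it. Its row also has a near copy, Ftl1-ps1, at 18.9 and 55.3 CPM in macrophages, so a share of its reads is uncertain. Ftl1 was flatter than Fth1: 2456 and 2849 CPM in macrophages, 2859 and 2559.8 in neutrophils, 1699 and 1807 in monocytes and 1342 and 1589 in cDC. NK, T and B cells were at 824, 469 and 1045 CPM in the library labelled Runx3_fl and at 948, 864 and 843 in the other. None of the 7 gates reached 2-fold, and the monocyte difference changed sign under 4 of the 12 alternative settings.

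The ferritin chains therefore shifted against each other. Each macrophage-gated Ftl1 UMI of the library labelled Runx3_fl came with 4.48 Fth1 UMIs (interval 4.39 to 4.57), and each of the other library with 2.73 (2.66 to 2.79). The ratio fell from 5.16 to 3.26 in neutrophils and from 4.15 to 2.92 in monocytes, and was 3.04 and 2.56 in T cells and 1.48 and 1.34 in NK cells. In cDC it was 1.72 and 2.37, and in B cells 0.641 and 2.26, the other way round. The 7 gates thus spanned 0.641 to 5.16 in the first library and 1.34 to 3.26 in the second. This is a ratio of UMIs within a library and says nothing of protein.

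Slc40a1, the only known cellular iron exporter, lies on chromosome 1 (45908068 to 45926523, minus strand) and was a gene of the neutrophil gate. It held 162 UMIs there in the library labelled Runx3_fl, 26.3 CPM (22.4 to 30.7), and 421 UMIs in the library labelled Runx3, 38.9 CPM (35.3 to 42.8). Macrophage-gated cells gave 3 UMIs in each library, 0.675 and 0.864 CPM. Of the other classes, NK cells had none in either library, with an upper limit of 0.668 and 4.86 CPM, and cDC, T and B cells had 1, 2 and 0 UMIs in the first and 3, 2 and 4 in the second. Monocyte-gated cells had 3 and 47 UMIs, 0.162 and 3.54 CPM, a log2 ratio of 4.45 without the added CPM (interval 2.82 to 6.78). These macrophage UMIs lay in 3 of 305 cells, 0.984% (exact interval 0.203 to 2.85), and in 3 of 290 cells, 1.03% (0.214 to 2.99).

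Slc11a1 was a gene of the neutrophil, macrophage and monocyte gates. It stood at 127 and 138 CPM in neutrophils, at 95.9 and 162 in macrophages and at 49.2 and 73.8 in monocytes. The macrophage difference was 1.68-fold and the neutrophil difference lay within its interval. In the low classes it was at 4.30 and 11.3 CPM in cDC, 3.85 and 12.6 in T cells and 6.90 and 15.3 in B cells, differences of 2.33-, 2.80- and 2.07-fold beside the S100a8 levels given above. NK cells held 12 and 7 UMIs. The B cell difference passed 2-fold under 6 of the 12 alternative settings, and the cDC difference was 0.92 on the log2 scale with a gate at 3 UMIs.

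Tfrc, which lies on chromosome 16 (32608920 to 32632794, plus strand), ran the other way across the classes. T and NK cells were highest in the library labelled Runx3_fl, at 76.0 and 75.7 CPM, and macrophages lowest, at 29.3 CPM. In the library labelled Runx3 NK, T and B cells were at 122, 90.2 and 80.0 CPM, and macrophages at 42.9. The interval of T cells overlapped those of NK and of B cells, while NK cells (98.8 to 150.0) lay above B cells (74.6 to 85.7). Monocytes were at 40.1 and 60.9 CPM, cDC at 41.0 and 63.4, B cells of the first library at 60.7, and neutrophils at 46.3 and 44.1. The spread over the classes was 2.60-fold and 2.85-fold, against 17.7-fold and 9.73-fold for Hmox1, and no gate reached 2-fold between the libraries.

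**Figure D2:**
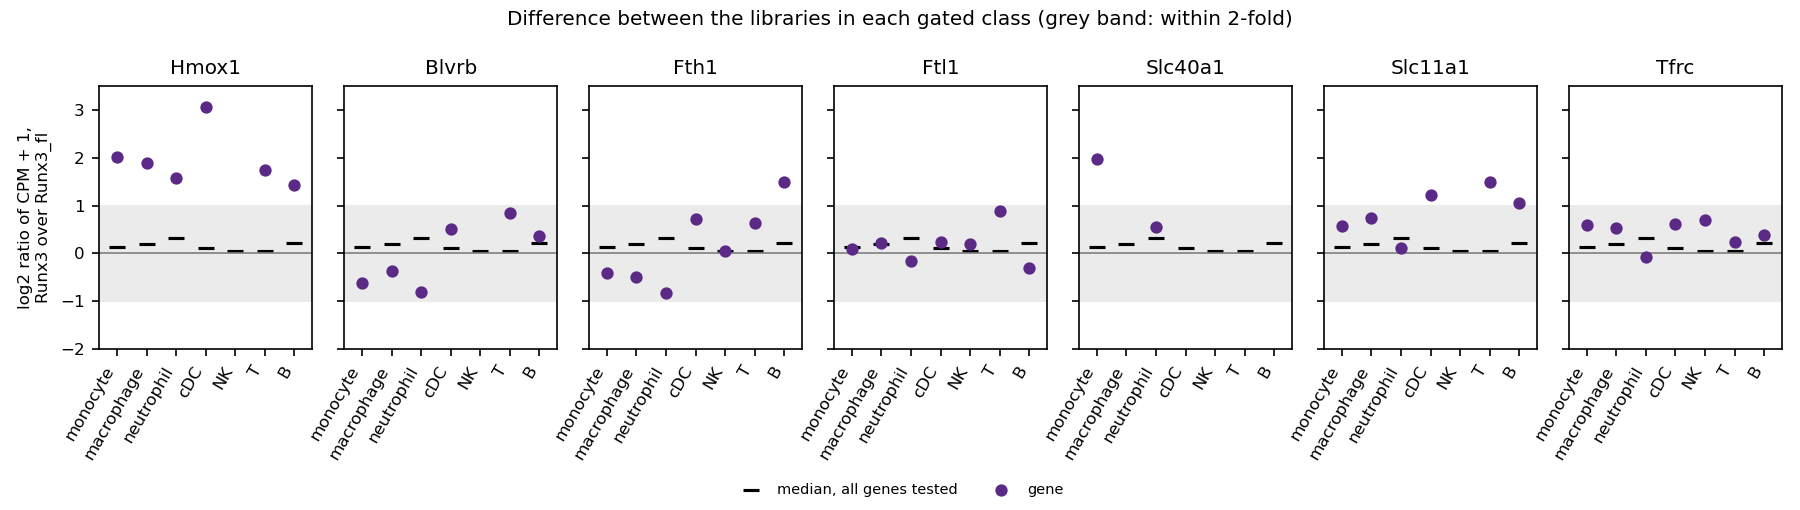
Log2 ratio of CPM + 1, library labelled Runx3 over library labelled Runx3_fl (y axis), for each gene in each gated class with at least 50 UMIs over both libraries (purple points, without error bars), with the median of all genes tested in that class (black dashes). Hmox1 lies above the grey band of less than 2-fold in all 6 classes shown, from 1.43 in B cells to 3.06 in cDC, and Blvrb and Fth1 lie below 0 in the monocyte, macrophage and neutrophil gates.

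Set against all genes, the counts were as follows. A gene counted as higher or lower when the ratio of CPM + 1 reached 2-fold, among genes with 50 UMIs over both libraries in the class. In macrophages 1 of 6 genes tested, Hmox1, was higher, where 10.5% of all 8726 genes tested were higher. None of the 6 was lower, where 3.03% of all genes were. In monocytes 2 of 7, Hmox1 and Slc40a1, were higher against 10.5% of all genes, and none was lower against 3.14%. The monocyte call of Slc40a1 rests on 50 UMIs in all, the least the comparison allows, and fell under that number when cells with a haemoglobin UMI were left out.

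In neutrophils 1 of 7, Hmox1, was higher against 13.7% of all genes, and none was lower against 3.25%. In cDC 2 of 6, Hmox1 and Slc11a1, were higher against 7.72%, and none was lower against 2.27%. In T cells the same 2 of 6 were higher against 12.8%, and none was lower against 8.31%. In B cells 3 of 6, Hmox1, Fth1 and Slc11a1, were higher against 19.4%, and none was lower against 13.6%. In NK cells 3 genes, Fth1, Ftl1 and Tfrc, could be compared and none was past 2-fold, where 4.42% of all genes were higher and 2.55% lower.

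With 3 to 7 genes in a gate, 1 gene moves a share by more than most of these backgrounds, and nothing is read from the counts of a single gate. Hmox1 was higher in each of the 6 gates where it could be compared. Of 8174 genes with 50 UMIs in all of these 6 gates, 78 were higher in all of them, 0.954%. Hmox1 was the only one of 6 haem and iron handling genes so placed. This last count leaves out NK cells, and that choice was made after Hmox1 was seen to have 49 UMIs there. The Hmox1 ratios kept their sign and stayed past 2-fold under all 12 alternative settings, from 1.70 to 2.01 on the log2 scale in macrophages.

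Haemoglobin RNA was measured beside these genes, since red cells are the main source of haem. In the library labelled Runx3_fl the summed Hba-a1, Hba-a2, Hbb-bs and Hbb-bt stood at 0.120 to 0.649 CPM in the 7 gates. In the library labelled Runx3 they were at 259.6 CPM in the monocyte gate, 8.64 in macrophages, 5.50 in B cells, 3.95 in NK cells, 2.13 in neutrophils, 1.66 in T cells and 1.41 in cDC. Cells in no gate held 0.635 and 808 CPM. The haemoglobin RNA of the monocyte gate lay in few cells: 73 of 2069 had a UMI, and the erythroid genes Alas2 and Slc4a1 were at 0.603 and 2.64 CPM there. Bpgm, an enzyme that red cells use to set oxygen release, was at 13.2 and 10.5 CPM in the same gate.

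Over all cells 40 of 11885 and 241 of 8167 had a haemoglobin UMI. Without the cells that held a haemoglobin UMI, the log2 ratios of Hmox1 were 2.03 in monocytes and 1.56 in neutrophils, beside 2.01 and 1.57 with them. The part of haem from red cells in the Hmox1 levels was not tested.

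**Figure D3:**
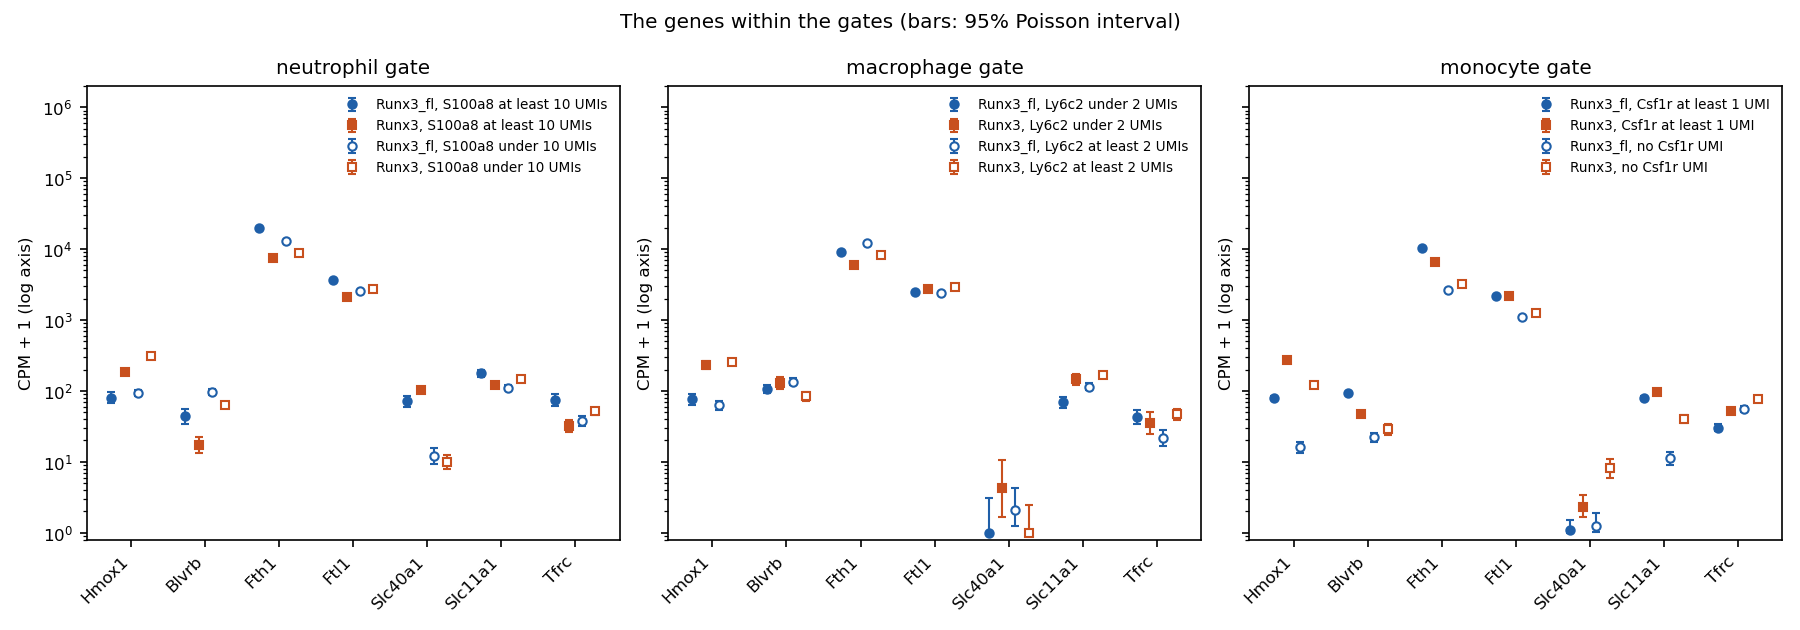
Each gene as CPM + 1 on a log axis with 95% Poisson intervals, in the neutrophil gate split by S100a8, the macrophage gate split by Ly6c2 and the monocyte gate split by Csf1r; filled and open symbols are the 2 sides of a split, blue circles the library labelled Runx3_fl and orange squares the library labelled Runx3. Slc40a1 lies at 70.6 and 102 CPM in neutrophil-gated cells with at least 10 S100a8 UMIs and at 11.1 and 9.0 CPM in the rest, and Hmox1 is higher in the library labelled Runx3 on both sides of every split.

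The neutrophil, macrophage and monocyte gates were each split once more. The splits of the neutrophil and monocyte gates were chosen after seeing the data. Neutrophil-gated cells with at least 10 UMIs of S100a8, the calcium-binding protein that fills neutrophil cytoplasm, numbered 302 and 309. Slc40a1 was at 70.6 CPM (58.1 to 85.0) and 102 CPM (91.7 to 113) in them, and at 11.1 and 9.0 CPM in the other 541 and 744 cells. The exporter's RNA was thus 5.91- and 10.3-fold higher on the S100a8 side. Hmox1 was at 79.5 and 183 CPM on that side and at 93.5 and 309.8 CPM on the other, higher in the library labelled Runx3 on both. Ccr2, a gene of the monocyte panel, was at 70.6 and 98.6 CPM on the S100a8 side and at 294 and 406 CPM on the other.

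In the S100a8 cells Fth1, Tfrc and Blvrb were also past 2-fold, lower in the library labelled Runx3. The share of all genes past 2-fold was not counted in this split, so nothing is read from their number. Fth1 was at 19966 and 7532 CPM, Tfrc at 73.8 and 31.1 and Blvrb at 43.3 and 16.4. Ftl1 was at 3645 and 2094 CPM and Slc11a1 at 176 and 121, within 2-fold. These cells differed between the libraries in more than iron genes. Their median depth was 3596 and 6943 UMIs. S100a8 itself was at 9196 and 68478 CPM, and S100a9, another neutrophil gene, at 11758 and 59349.9. Ltf, a granule protein of young neutrophils that binds iron, was at 20.4 and 4399 CPM. The part of depth and of these 3 genes in the differences was not tested. In the rest of the gate Fth1, Tfrc and Blvrb were at 12972 and 8740.0, 36.8 and 50.3, and 96.3 and 61.4 CPM, all within 2-fold.

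Macrophage-gated cells were split by Ly6c2, the marker of cells newly come from the blood. Those under 2 UMIs numbered 125 and 82, and those with at least 2 numbered 180 and 208. Hmox1 was at 75.6 and 233 CPM in the first and at 61.5 and 258 CPM in the second, and the intervals of the 2 sides overlapped in each library. Mrc1, a receptor of tissue macrophages, was at 102 and 436 CPM under 2 Ly6c2 UMIs and at 39.1 and 82.7 above. The split thus set apart cells that differ in more than Ly6c2. C1qa, a gate gene, was at 1278 and 2709 CPM under 2 Ly6c2 UMIs and at 777 and 1053 above. On each side the cells of the libraries thus differed in Mrc1 and C1qa, whose part in the differences between the libraries was not tested.

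The other genes were less even across this split. Blvrb was at 106 and 129 CPM in cells with little Ly6c2 and at 134 and 82.7 CPM in the rest. Slc11a1 was at 68.8 and 144 CPM, past 2-fold, and at 114 and 169 CPM. Tfrc was at 42.1 and 34.7 CPM in the first and at 20.9 and 45.9 CPM in the second, past 2-fold in the second. Fth1 was lower in the library labelled Runx3 on both sides, at 9246 and 6028 CPM and at 12145 and 8394 CPM, and Ftl1 differed by 0.12 and 0.25 on the log2 scale. Slc40a1 had at most 3 UMIs in any of the 4 sets.

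Monocyte-gated cells with a Csf1r UMI, which marks the macrophage lineage, numbered 777 and 980. Hmox1 was at 79.6 and 269 CPM in them and at 15.1 and 120.0 CPM in the 702 and 1089 cells without one. Blvrb was at 91.1 and 46.7 CPM and Fth1 at 10379.6 and 6529 in the Csf1r cells, lower in the library labelled Runx3, and at 21.3 and 27.7 and at 2624 and 3230.1 CPM without Csf1r, where the order turned. Of the 47 Slc40a1 UMIs in monocyte-gated cells of the library labelled Runx3, 36 lay in cells without Csf1r, which also carried S100a8 at 7055 CPM and Hba-a1 at 221 CPM. Their part in the Slc40a1 difference was not tested.

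Across the 14 points of 7 classes and 2 libraries, some genes ran alike. As a description only, since the points share 2 libraries and mixed gates, the Pearson correlation of log2(CPM + 1) was 0.92 between Hmox1 and Slc11a1 and 0.89 between Fth1 and Slc11a1. It was -0.81 between Blvrb and Tfrc and below 0 between Tfrc and each of the other genes. Among 5623 genes with 50 CPM in at least 1 point, Cebpb, a transcription factor of myeloid cells, was among the 3 most like Hmox1, at 0.95. Chil1, Cxcr2, a chemokine receptor of neutrophils, and Mmp9, a granule enzyme, were the most like Slc40a1, at 0.99, 0.98 and 0.98. For Fth1 they were Clec4n, Il1rn and Tnf at 1.00, 0.99 and 0.99, and for Blvrb Cybb, Cd38 and Myof at 0.96, 0.95 and 0.95.

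**Figure D4:**
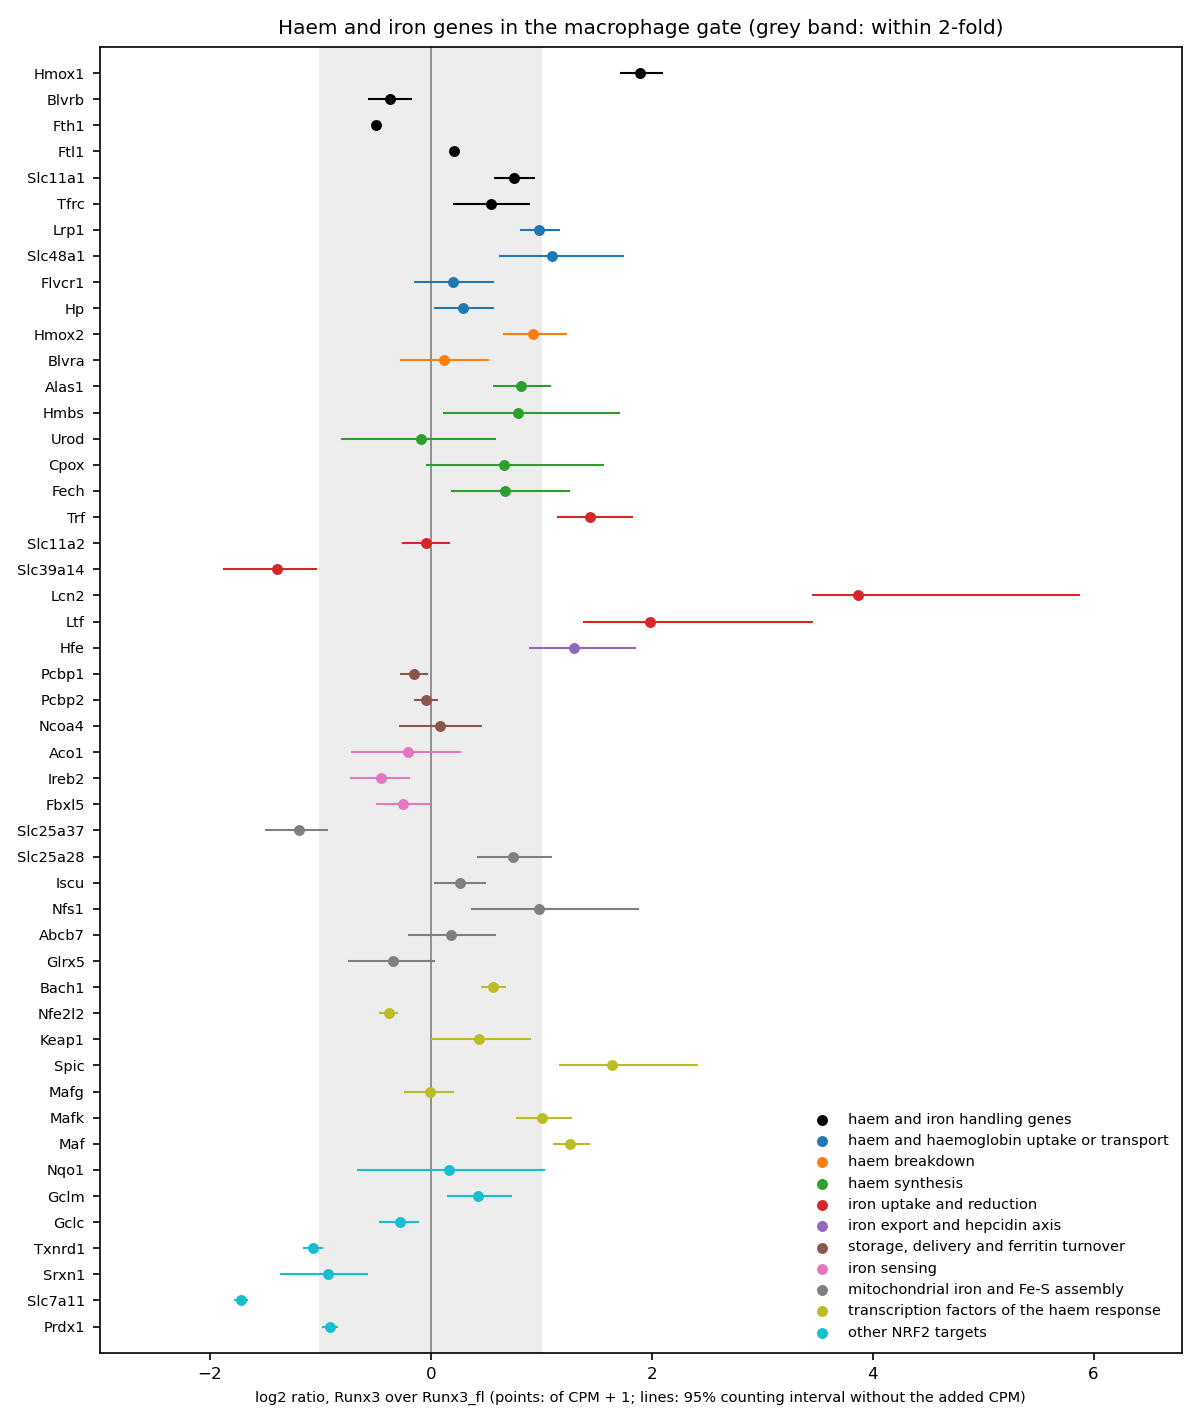
Log2 ratio, library labelled Runx3 over library labelled Runx3_fl, of haem and iron genes with at least 50 UMIs in macrophage-gated cells (points, of CPM + 1; lines, 95% counting intervals without the added CPM), coloured by list. Of 43 genes of the lists, 8 lie past 2-fold higher, with Lcn2 farthest at 3.87, and 4 past 2-fold lower, with Slc7a11 farthest at -1.72.

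The rest of the pathway was described in macrophage-gated cells through 63 further genes in 10 lists. Of these 43 had enough UMIs, 8 were at least 2-fold higher in the library labelled Runx3 and 4 at least 2-fold lower. Their median log2 ratio was 0.20, beside 0.19 over all 8726 genes tested, of which 919 were higher and 264 lower.

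Among genes of haem uptake and transport, 1 of 4 tested was higher: Slc48a1, which carries haem out of the phagolysosome, at 9.68 and 21.9 CPM. Cd163, the receptor for haemoglobin bound to haptoglobin, had 0 UMIs and 1 UMI. The 2 further genes of haem breakdown and the 5 tested of haem synthesis were within 2-fold, with medians of 0.52 and 0.67. Among genes of iron uptake and reduction, 3 of 5 tested were higher and 1 lower. Transferrin (Trf) was at 23.6 and 65.9 CPM, and the metal transporter Slc39a14 at 47.7 and 17.6. Slc11a2, which brings iron across the endosome, was at 93.9 and 91.0 CPM.

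Lcn2, which binds bacterial iron carriers, was at 1.58 and 36.6 CPM in macrophages and at 58.1 and 2165 CPM in the neutrophil gate. The third gene that was higher, Ltf, was at 2.48 and 12.7 CPM, and is named after its value was seen. S100a8 moved with both, at 5.40 and 99.6 CPM in macrophages, and its part in them was not tested. Hfe, the 1 gene of the export and hepcidin list with enough UMIs, was at 12.6 and 32.5 CPM. None of the 3 tested genes of ferritin delivery and turnover was past 2-fold (median -0.04), and Ncoa4, which takes ferritin to the lysosome, was at 30.4 and 32.2 CPM.

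The 3 iron sensing genes were within 2-fold (median -0.25). Ireb2, 1 of the iron regulatory proteins that bind elements like those shown above, was at 73.6 and 53.6 CPM. Of 6 tested genes of mitochondrial iron and Fe-S assembly 1 was lower, the importer Slc25a37, at 91.4 and 39.4 CPM (list median 0.22). Of the 7 genes listed as regulators of the haem response 3 were higher (median 0.56). They were Spic, a factor of red pulp macrophages, at 6.98 and 23.9 CPM, Maf at 105 and 253, and Mafk at 45.9 and 93.3. Bach1, which represses Hmox1 until haem binds it, was at 250.1 and 370.3 CPM. Nfe2l2, whose product NRF2 switches Hmox1 on, was at 666 and 509.6 CPM.

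Of 7 other targets of NRF2, 2 were at least 2-fold lower and none higher (median -0.91). Slc7a11, the cystine importer, was at 2688 and 816 CPM, and Txnrd1, the thioredoxin reductase, at 792 and 378. The other 5 were within 2-fold: Prdx1 at 1208 and 641 CPM, Srxn1 at 42.1 and 21.6 and Gclc at 148 and 122 were lower in the library labelled Runx3, Gclm was higher by 0.43 on the log2 scale (0.15 to 0.73), and Nqo1, at 6.08 and 6.91, differed by less than its interval. In the neutrophil gate Slc7a11 was at 5741 and 2002 CPM and Txnrd1 at 793 and 352, and in the monocyte gate at 1455 and 661 and at 521 and 276. Both were lower in the library labelled Runx3 in all 3 gates.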

How the data were processed

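RNA of lamina propria cells from the mouse colon was captured in 2 libraries with the 10x Genomics 3' kit, V3 in the labels, and read on an Illumina NovaSeq. The deposited files hold whole-number UMI counts per gene and cell, not normalized, made with Cell Ranger 7.1.0 per the file headers. The submitters' processing notes also name Seurat 4 and the build mm10. The library totals were 146204416 and 75478164 UMIs.

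Cells were kept by the study's limits of 200 to 6000 genes and at most 15% mitochondrial UMIs, and the upper limit on genes was the main treatment of doublets. Gates asked for at least 2 UMIs of each gate gene. Cells that met more than 1 of the macrophage, cDC, neutrophil, NK, T and B gates were left out (375 and 551), and Ly6c2 made a monocyte only where none of these was met. Of the cells kept, 4675 and 2435 met no gate. A gene's UMIs in all cells of a class were added up and scaled to 1000000 of all UMIs of that class, as CPM, with exact Poisson intervals. Ratios were taken of CPM + 1, and their intervals were exact conditional ones without the added CPM. Genes needed 50 UMIs over both libraries in a class. Shares used cells thinned once to 2000 UMIs, with exact Clopper-Pearson intervals, leaving out shallower cells: 0 and 8 in the macrophage gate, 14 and 583 in the monocyte gate, 49 and 59 in the neutrophil gate and 3 and 1 in the T gate. UMIs of 1 library are not replicates, so no p-value is given.

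The 7 genes, the gates and the lists were chosen with earlier results of these data known. Of the lists, the rule was to name genes that in macrophages reached 20 CPM and passed 2-fold. Cd163, Bach1, Nfe2l2, Spic, Ncoa4, Slc11a2 and Ireb2 were to be named whatever their values. Outside this rule the text also names Ltf and, of the NRF2 targets, Prdx1, Srxn1, Gclc, Gclm and Nqo1. For each gene the 3 most like it were found, and some of these are named. The ratios and their intervals were tested on counts simulated from the macrophage gate. The thinning was checked on Fth1 and Ftl1 in cells of the library labelled Runx3_fl. The gates, the splits and the search for elements were not tested in this way. The scripts ran in Python 3.11.15 with matplotlib 3.10.9, pandas 2.3.3, scipy 1.17.1 and numpy 2.4.6. Alternatives changed the gate threshold, gate genes, cell filter, weighting, normalization and added CPM.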

Additional observations from a re-analysis of the deposited data

Results flagged for a closer look

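In 3 of the genes the libraries differed in opposite directions in different gates, with 1 library on each side, and the difference between the gates was not tested. Blvrb had a log2 ratio of -0.81 (-1.0 to -0.64) in neutrophils and of 0.84 (0.39 to 1.46) in T cells, where it rests on 251 and 35 UMIs. Fth1 had a ratio of -0.82 (-0.83 to -0.81) in neutrophils and of 1.50 (1.46 to 1.55) in B cells. Ftl1 had a ratio of -0.31 (-0.35 to -0.26) in B cells and of 0.88 (0.82 to 0.94) in T cells.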

How the results depend on the processing

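No paired analysis was possible because each group had 1 library. Of 11 pairs of a gene and a gate past 2-fold, all kept their sign under the 12 alternatives for the ratios and 8 stayed past 2-fold under every one; of 30 pairs within 2-fold, 5 changed sign under at least 1. The monocyte count of 2 genes became 1 with a gate at 1 UMI, with 2 further markers required, with at most 10% mitochondrial UMIs, without the 10% of cells with the most UMIs, without cells holding a haemoglobin UMI and, chosen after seeing the data, with a Csf1r UMI required; the ratio of Slc40a1 stayed past 2-fold in these, on fewer than 50 UMIs. The macrophage count of 1 became 2 when cells meeting several gates were assigned, and the NK count of 0 became 1 then and with a gate at 1 UMI. The cDC count of 2 became 1 with a gate at 3 UMIs, and the B count of 3 became 1 as a mean over cells. The neutrophil count of 1 became 2 with 2 further markers, 3 with the median ratio set to 0 and 4 with at least 10 S100a8 UMIs, chosen after seeing the data. For the sets chosen by S100a8 or Csf1r UMIs, the share of all genes past 2-fold was not counted. Requiring 2 further markers turned the neutrophil ratio of Slc40a1 from 0.55 to -0.34. The genes highest in macrophages, 3 in the library labelled Runx3 (Blvrb, Ftl1 and Slc11a1) and 1 in the other, became 1 in the former as a mean over cells. Of all genes, 1183 in macrophages, 1020 in cDC and 544 in NK cells were past 2-fold, and 2752, 1753 and 2945 with no filter on low counts, where more genes were compared; in neutrophils 1823 became 3150 with 2 further markers. Apart from the filter on low counts, the cause of these changes was not tested. The 62 NK-gated cells of the library labelled Runx3 limit what can be seen there.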

Other observations

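Cells that met several gates were not used above. Hmox1 was at 39.1 and 188 CPM in them and at 16.1 and 81.2 CPM in cells that met no gate. The row Ftl1-ps1, a near copy of Ftl1, was at least 2-fold higher in the library labelled Runx3 in all 7 gates, from 4.36 and 23.9 CPM in T cells to 26.1 and 59.2 CPM in neutrophils, while Ftl1 was past 2-fold in none. The cause was not tested.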
